A study of Mus musculus with 6 samples.

Results

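Goblet cells with little Spink4 RNA were examined among single epithelial cells of the mouse jejunum. The cells were selected on the deposited values of 6 genes. S was a cell's deposited log2 value of a gene minus the 5th percentile of that gene among the cells of its pool (plate and letter A or B). A member had a mean S of Muc2 and Fcgbp of at least 3.5, an S of Spink4 below 5, an S of Rbp2 below 4.5 and a mean S of Chga and Chgb below 3. The rule found 507 of 2043 cells (24.8%), and they are called low-Spink4 goblet cells here. The same rule with an S of Spink4 of at least 5 found 155 high-Spink4 goblet cells. Cells with an S of Rbp2 of at least 4.5 that lay below the goblet and granin thresholds numbered 445 and are called Rbp2 enterocytes.

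The cells came from 3 mice of 120 days, of mixed CD-1:C57BL/6 background. The labels name no engineered allele and no treatment for any sample. The small intestine was cut into 12 pieces, and piece 3 (anterior jejunum) and piece 7 (posterior jejunum) of each mouse gave 1 sample each, so there were 3 samples a region and 6 in all. Villus and crypt cells were mixed at 1:1, and living cells stained for EpCAM, an epithelial surface protein, were sorted one to a well for MARS-seq, which counts messenger RNA molecules by unique molecular identifiers (UMIs). In such a mixture the position of a cell on the crypt-villus axis is not recorded.

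Goblet cells fill secretory granules with the mucin Muc2 and with proteins packed alongside it, among them Fcgbp, Tff3, Zg16 and Clca1, and release them as the mucus gel that covers the epithelium. They arise in the crypt, move up the villus and are shed near its tip. Spink4 is a small secreted protein of the Kazal inhibitor family made by goblet cells. Rbp2 carries retinol in absorptive enterocytes, and Chga and Chgb are granins of enteroendocrine cells.

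The 6 samples held 198 to 568 cells and 1640578 to 3157105 UMIs. The values of the thresholds are a description, since they made the class. The member nearest to the Spink4 threshold had an S of 4.97 and the nearest cell outside it 5.01, and 42 members and 29 high-Spink4 cells lay within 0.5 of it. For the mean of Muc2 and Fcgbp the nearest values were 3.53 inside and 3.49 outside, for Rbp2 4.48 and 4.52, and for the granins 3.00 and 3.04. Within 0.5 of the Rbp2 threshold lay 48 members and 50 cells outside that met the other parts of the rule. These numbers were 27 and 42 for Muc2 and Fcgbp, and 10 and 5 for the granins. Of the members, 190 (37.5%) had no Spink4 UMI and the median was 1 UMI, against a median of 66 in high-Spink4 cells. S is scaled by depth, so its Spink4 threshold stood for 5.55 to 8.42 UMIs at the median scaling of the members of a sample, and for 16.4 to 44.3 UMIs in high-Spink4 cells. The sum of Muc2 and Fcgbp UMIs had a median of 177 and a minimum of 3 in members, and it was 10 or fewer in 46 of them. In Rbp2 enterocytes that sum had a median of 5 and was 10 or fewer in 323 of 445 cells.

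Levels below are UMIs per 10000 UMIs of the cell (CP10K), averaged over the cells of a class in each sample. Members carried goblet genes that the rule did not read. Tff3, a trefoil peptide of the mucus, stood at 679 to 1261 CP10K over the 6 samples in members and at 14.8 to 48.9 in Rbp2 enterocytes. Zg16, a lectin of the mucus gel, stood at 230 to 871 against 18.2 to 62.3 CP10K. Ern2, the stress sensor of mucus-secreting epithelia, averaged 12.4 ± 8.21 (SD, n = 6 samples) in members and 0.0704 CP10K in enterocytes, and Spdef, a transcription factor of goblet cells, averaged 2.18 ± 1.39 against 0.039 CP10K. The label of goblet cell therefore had these markers beside the 2 genes that chose the cells. These are averages over the cells of a sample and do not show the label for each member. Muc2 itself averaged 302 ± 135 in members and 358 ± 37.1 CP10K in high-Spink4 cells, and Fcgbp 379 ± 209 and 371 ± 102 CP10K.

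Of the anterior cells of mice 1, 2 and 3, members made up 29.2%, 16.7% and 14.5% (Wilson 95% intervals 25.6 to 33.1, 12.1 to 22.5 and 10.8 to 19.3). They made up 42.1%, 8.57% and 13.8% of the posterior cells (37.9 to 46.4, 5.83 to 12.4 and 9.92 to 19.0). These intervals cover counting error only. Mouse 1 had the highest share in both regions and supplied 381 of the 507 members (75.1%). The regional means, 20.1% ± 7.95 and 21.5% ± 18.0 (SD, n = 3), differed by less than the spread between mice (two-sided exact permutation test, p = 1.00, where 3 against 3 cannot go below 0.10). Without posterior mouse 1 the anterior share was the higher, by 8.93 percentage points (exact permutation p = 0.20). Among low- and high-Spink4 goblet cells together, members were 73.5%, 80.5% and 82.6% of anterior and 79.6%, 68.6% and 70.5% of posterior cells, a difference of 5.96 percentage points beside SDs of 4.79 and 5.92 that did not pass (exact permutation p = 0.20). The plate annotation also marks each well as pos or neg for a sort marker that it does not name. The pos share of members was 44.7% to 58.1% in 5 samples and 81.8% in anterior mouse 2 (27 of 33 cells), beside 48.9% to 57.1% of all cells of a sample.

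Members held few molecules. In mice 1, 2 and 3 their median was 1925.5, 1653 and 1514.5 UMIs for anterior cells and 1678, 1724.5 and 1361 for posterior cells. The high-Spink4 cells of the same samples had 4987, 13953.5 and 14992, and 6458, 9202 and 14626 UMIs. The groups did not overlap, and within a sample the high-Spink4 median was 2.59 to 10.7 times that of members (mean difference -2.59 ± 0.82 in log2 UMIs, SD, n = 6, two-sided exact sign-flip test, p = 0.0312, the smallest that 6 samples allow). Rbp2 enterocytes of the same plates had medians of 5264 to 9584 UMIs. The members ranged from 461 to 34022 UMIs, 215 of them had at least 2000 and 67 at least 4000. Fewer molecules recovered and less RNA in a cell cannot be told apart in these data.

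Members also held fewer detected genes, with medians of 393.5 to 630.5 against 811 to 1364.5 in high-Spink4 cells, a difference of -578 ± 238 genes (exact sign-flip p = 0.0312). When every cell was thinned to 1000 UMIs, which left out 74 members and 8 high-Spink4 cells, members had 302 to 432 and high-Spink4 cells 250 to 366.5 genes. Members then had more genes in 4 of 6 samples, by 46.8 on average (exact sign-flip p = 0.125). The messages of high-Spink4 cells were concentrated in few genes. The 50 most abundant genes were ranked over low- and high-Spink4 cells together. They took a median of 46.5% to 69.3% of the UMIs of high-Spink4 cells, and 25.8% to 40.9% of the UMIs of members.

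**Figure D1:**
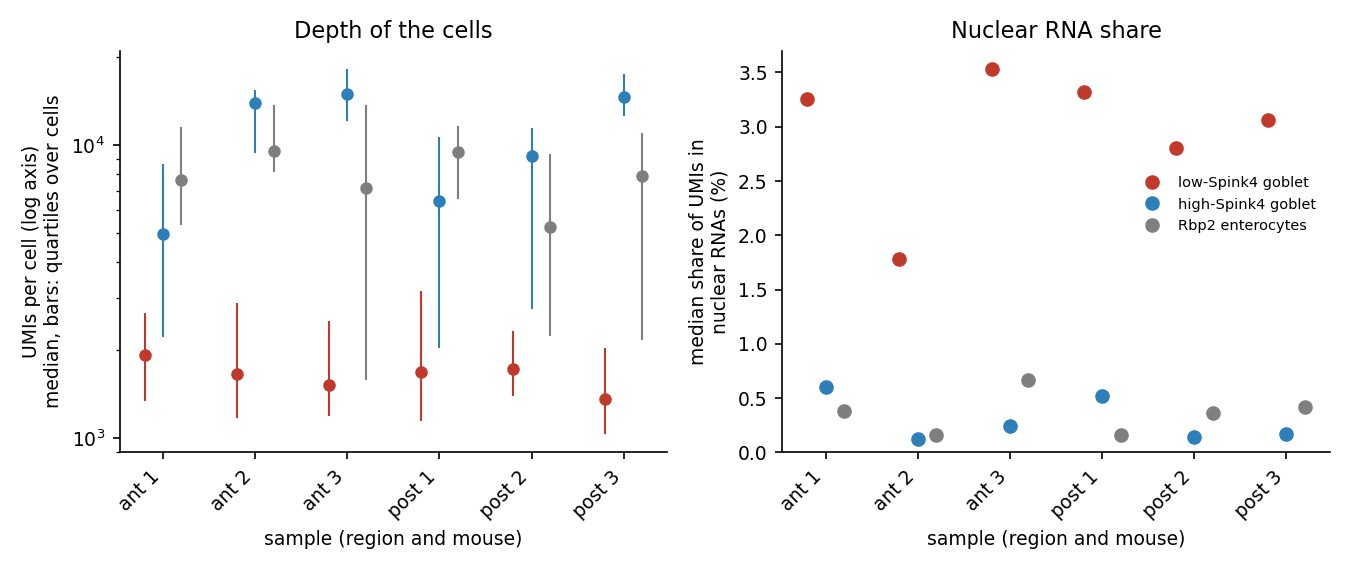
Left, median UMIs per cell on a log axis with the quartiles over cells as bars, right, median share of UMIs in nuclear RNAs (%), for low-Spink4 goblet cells (red), high-Spink4 goblet cells (blue) and Rbp2 enterocytes (grey) in each of the 6 samples. The medians of low-Spink4 cells lie between 1361 and 1925.5 UMIs, below every other class, and their nuclear shares between 1.78% and 3.53%, above every other class.

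RNAs listed as nuclear took a larger share of the molecules of members. The list held 18 long non-coding RNAs taken as nuclear, of which 5 were in both tables (Malat1, Neat1, Gm26917, Tug1 and Xist). Where in the cell each of them lay was not tested. Their median share per cell was 3.26%, 1.78% and 3.53% in anterior and 3.32%, 2.80% and 3.06% in posterior members of mice 1, 2 and 3. In high-Spink4 cells it was 0.603%, 0.124% and 0.240%, and 0.520%, 0.143% and 0.167%. The difference was 2.66 ± 0.544 percentage points (SD, n = 6), with members higher in 6 of 6 samples (exact sign-flip p = 0.0312). After thinning to 1000 UMIs it was 2.48 points, from 1.55 to 3.05, again in 6 of 6 samples (exact sign-flip p = 0.0312). Thinning evens the counts but still sets cells that were shallow against cells that were deep. In cells of at least 2000 UMIs the difference was smaller, 1.72 points (exact sign-flip p = 0.0312). With the 3 mice as units, this exact test and the 2 on depth and genes cannot go below p = 0.25.

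Malat1 is a long non-coding RNA of nuclear speckles, and its gene lies beside that of Neat1, the scaffold RNA of paraspeckles, on chromosome 19 (chr19:5795690-5802672 and chr19:5824708-5845478, GRCm38). Malat1 stood at 166, 121 and 159 CP10K in anterior and 187, 198 and 238 CP10K in posterior members, and at 54.8, 3.22 and 16.8, and 58.8, 59.2 and 7.57 CP10K in high-Spink4 cells. All 6 samples of members lay above all 6 of high-Spink4 cells, by a log2 difference of 3.05 ± 0.38 (SE, adjusted p = 7.99e-05). Neat1 stood at 13.1 to 23.1 against 0.418 to 10.6 CP10K, a log2 difference of 3.17 ± 0.46 (adjusted p = 0.000252), and these groups did not overlap either. Gm26917, annotated as a long non-coding RNA, averaged 102 ± 38.7 against 31.0 ± 22.4 CP10K (SD), and Tug1 5.06 ± 1.49 against 1.21 ± 0.692. The listed RNAs summed to 309 CP10K on average in members and 70.8 in high-Spink4 cells, so Gm26917 was a large part of both sums. It is also part of every nuclear share above, and no share without it is given here. Whether its reads (chr17:39843013-39846341) come from a nuclear long non-coding RNA or from another RNA of that stretch was not tested. In Rbp2 enterocytes Malat1 stood at 15.4 to 123 CP10K, below the members of the same sample in 6 of 6. No mitochondrially encoded gene is among the shared genes used here, so the mitochondrial share of RNA was not analysed.

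The deeper members did not all look like the rest. In the 13, 8 and 6 anterior members with at least 4000 UMIs, Malat1 was 84.2, 6.57 and 6.98 CP10K and Zg16 1808, 2501 and 3008 CP10K in mice 1, 2 and 3. The 2 such cells of posterior mouse 3 had 2.23 CP10K of Malat1 and 2498 of Zg16. The 37 of posterior mouse 1 had 204 CP10K of Malat1 and 593 of Zg16, beside 185 and 352 CP10K in its members under 2000 UMIs. Posterior mouse 2 had 1 such cell, with 20.8 CP10K of Zg16 and 9.53 of Muc2. These are descriptions of few cells, and depth within the class was chosen after the values were seen.

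Across all genes tested, members were compared with high-Spink4 cells of the same samples on log2(mean CP10K + 0.2), with the 6 genes of the rule left out. Of 4505 genes, 477 were higher (10.6%) and 79 lower (1.75%) in members at a Benjamini-Hochberg adjusted p below 0.05 in limma. The median gene was itself higher by 0.42 on the log2 scale, and by 0.14 when the 50 most abundant genes were left out of the totals. Levels centred on the median gene of each class and sample moved that median to -0.09 and the split to 162 higher and 227 lower, so it is said below where centring ended the call of a named gene. Of the 556 calls, 411 had the same sign in all 6 samples. A gene that follows Spink4 or depth from cell to cell had to differ between classes cut on Spink4, so these tests say how steady a difference was over samples and not that it is separate from the cut. Without both samples of mouse 1 the calls were 347 and 46, with the mean of both regions of each mouse 308 and 36, and with at least 10 cells of each class in a sample, which left 4 samples, they were 13 and 9. With the mean of both regions of each mouse, the calls described here for Arf4, Arglu1, Cd9, Cox7a1, Defa24, Gcnt3, H2-Aa, Muc3, Pecam1, Rps14, S100a6 and Tmsb10 did not pass (adjusted p = 0.0519 to 0.0883).

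The largest increases with the same sign in every sample were led by the chromatin remodeller Chd3. It stood at 1.37, 6.35 and 6.27, and 1.37, 3.86 and 10.2 CP10K in members and at no more than 0.385 in any high-Spink4 sample (log2 difference 3.63 ± 0.48, adjusted p = 0.00011). Nos1ap, an adaptor of neuronal nitric oxide synthase, stood at 0.968 to 8.72 CP10K and at 0 in 4 of the 6 high-Spink4 samples (3.32 ± 0.56, adjusted p = 0.00126). Pnisr, a splicing-related protein, rose by 3.25, Optn, an autophagy receptor, by 3.19, and Creb3l3, a transcription factor of lipid metabolism in enterocytes and liver, by 3.17. Son, a protein of nuclear speckles, and Ankrd11, a chromatin regulator, each rose by 3.04, Sbno2 by 3.06, Lmo7 by 3.01 and the long non-coding RNA Gm42726 by 3.08. With Malat1 and Neat1 these were the 12 largest. All 12 also passed when centred on the median gene. In cells of at least 2000 UMIs 5 of them did not pass, Nos1ap with a difference of 0.75 (adjusted p = 0.399) and Optn, Lmo7, Pnisr and Son with 1.62 to 2.42 (adjusted p = 0.0536 to 0.0892). Gm42726 is annotated as antisense to another gene, and whether the counting used strand is not stated here.

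Of the 12 largest decreases with the same sign in every sample, that of Mptx1, a pentraxin, came first, with 0 to 4.78 CP10K in members and 1.73 to 43.4 in high-Spink4 cells (log2 difference -3.83 ± 0.43, adjusted p = 2.48e-05). Agr2, the disulfide isomerase that goblet cells need to make Muc2, stood at 7.61, 16.4 and 7.08, and 5.64, 3.83 and 5.70 CP10K in members. In high-Spink4 cells it stood at 33.9, 78.6 and 49.3, and 60.8, 66.7 and 63.1, so the groups were apart in every sample (-3.00 ± 0.28, adjusted p = 1.67e-06). Fxyd3, a regulator of the sodium pump, differed by -2.99, the chemokine Ccl6 by -2.71, the kallikrein Klk1 by -2.69 and Guca2a, the hormone guanylin, by -2.31. Tspan1 differed by -2.33, Ly6e by -2.32, the processed pseudogene Gm6204, whose reads may belong to its parent gene, by -2.04, Krtcap2, a subunit of the oligosaccharyl transferase complex, by -1.96, Pdia6, a disulfide isomerase, by -1.94, and Arf4, a small GTPase of the Golgi, by -1.92. All 12 passed when centred and without mouse 1. Arf4 did not pass in cells of at least 2000 UMIs (adjusted p = 0.0847), nor did Arf4, Tspan1, Gm6204 and Pdia6 in cells thinned to 1000 UMIs (adjusted p = 0.0798 to 0.209).

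**Figure D2:**
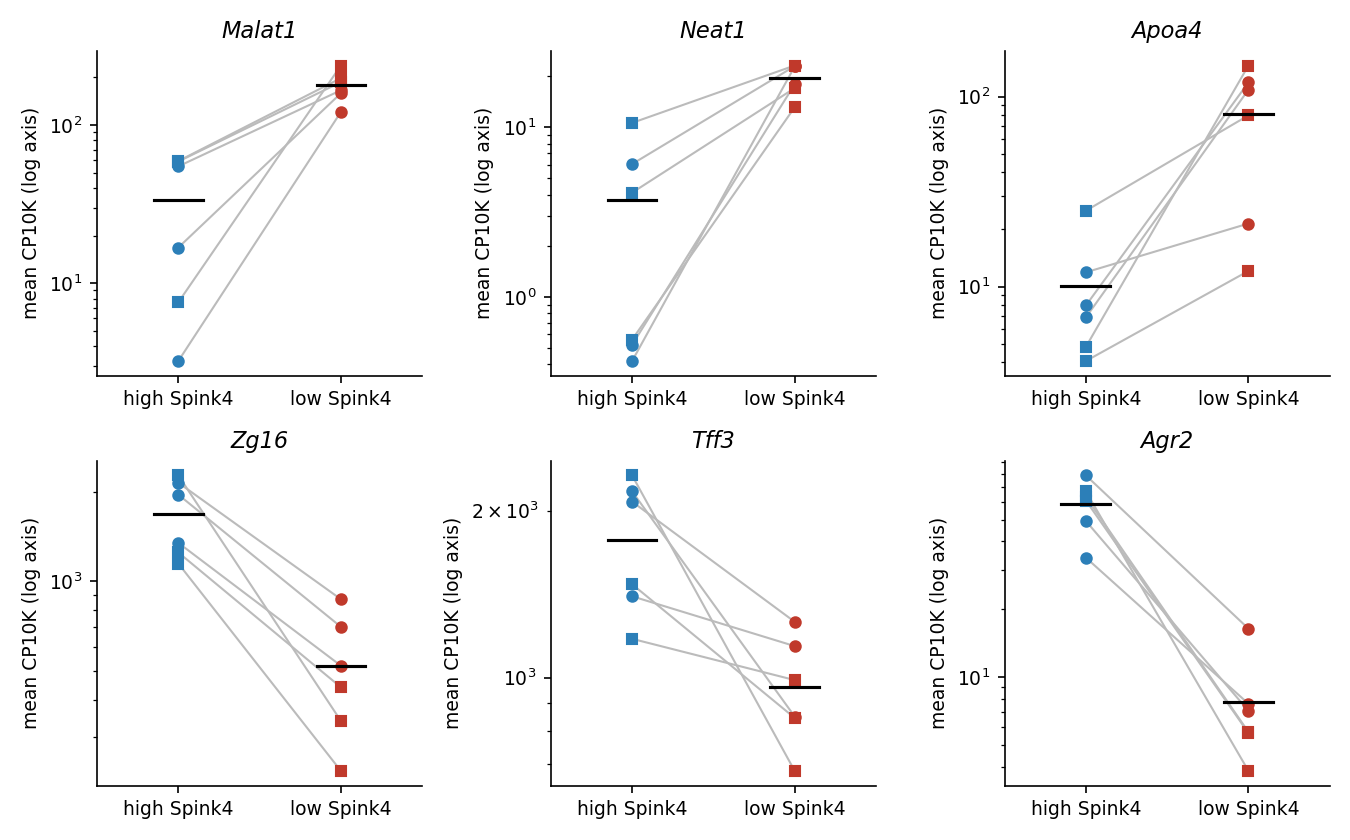
Mean CP10K (log axis) of 6 genes in high-Spink4 (blue) and low-Spink4 (red) goblet cells, with lines joining the classes of 1 sample, circles for anterior and squares for posterior samples and black bars for the means of 6 samples. Malat1, Neat1 and Apoa4 are higher and Zg16, Tff3 and Agr2 lower in low-Spink4 cells in all 6 samples.

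Mucus and goblet secretion genes were lower in members as a list. Of 18 tested, 12 fell and 1 rose, with a median log2 difference of -1.59 beside 0.42 for all genes. Zg16 stood at 520, 871 and 703, and 440, 230 and 339 CP10K in members and at 1149 to 2276 in high-Spink4 cells (-1.79 ± 0.15, adjusted p = 1.13e-06). Tff3 averaged 961 ± 214 against 1769 ± 475 CP10K (SD, log2 difference -0.86 ± 0.15, adjusted p = 0.00159). In cells of at least 2000 UMIs the Tff3 difference was -0.24 and did not pass (adjusted p = 0.151). Clca1, a secreted protein that processes mucus, averaged 48.7 ± 29.3 against 139 ± 67.1 CP10K (-1.49 ± 0.21, adjusted p = 0.000159). The gene that rose was Muc3, a membrane-bound mucin of the brush border, at 3.79 against 1.17 CP10K on average, and it did not pass when centred (adjusted p = 0.226) or in deeper cells (0.162). Rbp2 enterocytes averaged 6.00 CP10K of Muc3.

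Of 19 genes tested that glycosylate mucins, 1 rose and 1 fell (median -0.49). St3gal4, a sialyltransferase, was higher by 1.89 ± 0.38 (adjusted p = 0.00395). It averaged 9.74 CP10K in members, 2.45 in high-Spink4 cells and 12.1 in Rbp2 enterocytes, and the part of enterocyte RNA in its rise was not tested. Gcnt3, which builds the branched cores of mucin sugars, averaged 1.61 against 3.69 CP10K (log2 difference -1.36 ± 0.44, adjusted p = 0.0487), and did not pass in deeper cells (0.279) or without mouse 1 (0.0860). Galnt10, which adds the first sugar to mucin peptides, did not pass (3.07 ± 2.05 against 1.68 ± 1.66 CP10K, adjusted p = 0.158).

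None of 10 goblet transcription factors tested passed in limma, and 3 of them were above 0 (median -0.58), or 1 when centred, where Creb3l1 fell. Spdef averaged 2.18 ± 1.39 CP10K in members and 2.29 ± 0.905 in high-Spink4 cells (adjusted p = 0.697). Klf4 averaged 10.5 ± 7.24 and 7.35 ± 5.11 (log2 difference 0.44, adjusted p = 0.46), and passed when the Spink4 threshold was 6 (1.24, 0.0337). Elf3 averaged 3.60 ± 1.75 and 2.75 ± 0.998 (adjusted p = 0.672), and Xbp1, which drives the secretory machinery, 2.39 ± 0.849 and 3.91 ± 2.88 (adjusted p = 0.382). The standard errors of these 4 differences were 0.38 to 0.53 on the log2 scale, and a p that misses the threshold does not show that the levels were alike.

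Genes of the endoplasmic reticulum and early secretory pathway had a median log2 difference below that of all genes. Of 61 tested, 9 fell (Pdia6, Krtcap2, Manf, Kdelr2, Ssr4, Sec61b, Sec61g, Selenok and Selenom) and 2 rose, and 49 lay below 0 (median -0.61). The number that fell was 20 when centred, 5 of 60 in cells of at least 2000 UMIs, 3 of 56 in thinned cells and 4 of 60 without mouse 1. The 2 that rose were Rrbp1, which anchors ribosomes to the endoplasmic reticulum (24.3 ± 8.26 against 9.33 ± 6.13 CP10K, log2 difference 1.67 ± 0.34), and Ern2 (12.4 ± 8.21 against 4.17 ± 4.85, 2.11 ± 0.35), both in 6 of 6 samples. Ern2 did not pass in cells of at least 2000 UMIs (adjusted p = 0.117). Some genes of this pathway carry a promoter element, ERSE, that is bound by stress-activated factors. Promoters were therefore searched on both strands for CCAAT and CCACG 9 bases apart, and for the ERSE-II form with ATTGG and CCACG 1 base apart. In the RefSeq promoters of GRCm38.p6 (250 bases before to 50 after the start site), ERSE was found in 0.119% of 32851 and in 7 of the 48 tested genes of the pathway that had a promoter. ERSE-II was found in 0.0365% and in 3 of those 48 (Dnajb11, Herpud1 and Krtcap2). Of the 11 called genes, 8 had a promoter, 1 of them with ERSE (Pdia6) and 1 with ERSE-II (Krtcap2).
Part of the promoter before the start site is printed for Pdia6 (chr12:17266431-17266544, plus strand), which fell, and for Hsp90b1, the chaperone Grp94 (chr10:86705578-86705694, minus strand), which also carries ERSE and did not pass. Capitals mark the ERSE match, so that a reader can compare the matches. The match begins 98 bases from the start site in Pdia6 and 212 bases in Hsp90b1, so the printed stretches are not aligned.
Pdia6: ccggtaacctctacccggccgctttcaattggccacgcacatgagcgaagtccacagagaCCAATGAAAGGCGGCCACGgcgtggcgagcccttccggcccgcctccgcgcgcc
Hsp90b1: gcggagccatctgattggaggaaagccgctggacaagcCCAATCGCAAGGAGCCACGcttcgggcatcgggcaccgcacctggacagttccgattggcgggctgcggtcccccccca
Pdia6 averaged 0.681 ± 0.519 CP10K in members and 3.24 ± 2.33 in high-Spink4 cells (adjusted p = 0.0122), and Hsp90b1 1.57 ± 0.474 and 2.72 ± 1.48 (log2 difference -0.61 ± 0.38, adjusted p = 0.294). A match is a description of letters and not of binding. Hsp90b1 was chosen after its values were seen.

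Genes of cytosolic ribosomal proteins, taken by their Rpl or Rps symbols with pseudogene copies included, had a median log2 difference of -0.74. Of 113 tested, 14 fell and 1 rose, and the one that rose, Rps6kb1, is a kinase and not a ribosomal protein. Rpl41 averaged 20.2 ± 5.35 against 44.8 ± 8.08 CP10K (adjusted p = 0.00266) and Rps14 8.98 ± 3.69 against 19.8 ± 7.21 (adjusted p = 0.0181). Centred on the median gene, 64 of the 113 were lower, and in cells of at least 2000 UMIs 32 of 111, and reads may be split between these genes and their pseudogene copies. Nuclear genes of oxidative phosphorylation had a median of 0.02, and of 76 tested 1 rose (Cox7a1, 1.43 against 0.333 CP10K, adjusted p = 0.0355), which did not pass when centred.

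The difference followed the length of the transcript. Taking the longest transcript of each gene in the GENCODE vM21 basic annotation (found for 99.9% of the genes), called genes that were higher in members had a median of 3418 bases and those that were lower 1007 bases, beside 2778 bases for all genes tested. Over 5 groups of equal size from the shortest to the longest transcripts, the median log2 difference was -0.13, 0.33, 0.45, 0.59 and 0.81. The shortest group (57 to 1360 bases) held 48 higher and 49 lower genes, and the longest (4922 to 123179 bases) held 154 and 1. The same order held in cells of at least 2000 UMIs (-0.42 to 0.57), in thinned cells (0.03 to 1.01) and when ribosomal proteins were left out (-0.02 to 0.81). The 5 groups had median levels of 0.733 to 0.890 CP10K in members. The part that RNA quality had in this order was not tested.

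**Figure D3:**
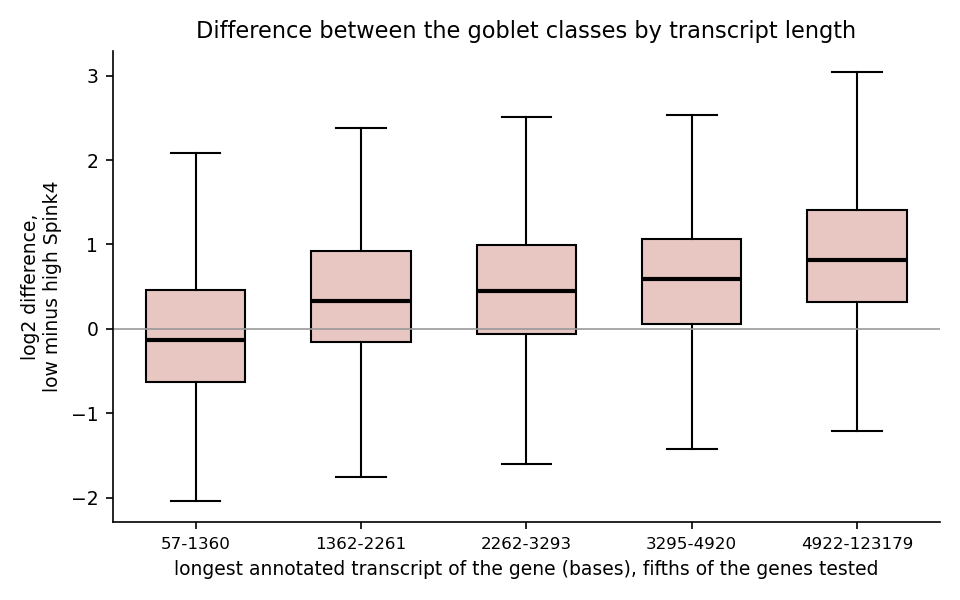
Log2 difference between low- and high-Spink4 goblet cells (vertical) for 4502 genes in 5 equal groups by the length of the longest annotated transcript in bases (horizontal); boxes span the quartiles over genes, thick lines are medians and whiskers reach up to 1.5 times the box. The medians rise from -0.13 in the shortest to 0.81 in the longest group.

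Villus genes were examined in 2 lists. Of 20 genes listed for goblet cells of the villus or surface epithelium, 11 were tested, 2 rose and 1 fell, with a median of 0.34 beside 0.42 for all genes, so the median of the list lay below that of all genes. Summed over the list, members held 62.4 to 115, high-Spink4 cells 40.2 to 60.3 and Rbp2 enterocytes 98.1 to 141 CP10K. Slc9a3r1, a scaffold protein of the brush border, stood at 6.14, 4.78 and 6.23, and 4.69, 11.6 and 19.6 CP10K in members and at 0.328 to 4.11 in high-Spink4 cells (log2 difference 2.17 ± 0.40, adjusted p = 0.00245). All 6 samples of members lay above the high-Spink4 cells of any sample. Ces2e, a carboxylesterase, stood at 3.62 to 8.71 against 0.470 to 2.52 CP10K (2.20 ± 0.40, adjusted p = 0.0022). Both were higher still in Rbp2 enterocytes on average, with Ces2e at 8.87 to 21 CP10K there. The gene that fell was Cd9, a tetraspanin, at 0.431 against 1.55 CP10K on average (-1.44 ± 0.45, adjusted p = 0.0405), and it did not pass in deeper cells (0.142), in thinned cells (0.834) or without mouse 1 (0.112). Cldn7, a claudin of the lateral membrane, averaged 20.5 ± 6.99 against 10.9 ± 4.78 CP10K and did not pass (0.99 ± 0.32, adjusted p = 0.0508), but passed in cells of at least 2000 UMIs (1.08, 0.0430) and without mouse 1 (1.36, 0.0175). Krt8 (18.8 ± 3.86 against 18.3 ± 2.94 CP10K, adjusted p = 0.944) and Plac8 (13.3 ± 6.26 against 9.80 ± 3.77, adjusted p = 0.455) did not pass, and their sign turned when centred on the median gene (-0.48 and -0.14).

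Of 31 genes listed for the villus tip of the epithelium, 25 were tested, 9 rose and 3 fell, with a median of 0.99. Among the 9 were Neat1, also on the nuclear list, and Apoa4, also on the enterocyte list, so the lists are not separate. Summed over the tip list, members held 146 to 381, high-Spink4 cells 104 to 155 and Rbp2 enterocytes 130 to 514 CP10K. The sum averaged 234 CP10K in members and 125 in high-Spink4 cells. Much of that gap was Apoa4, with 81.3 against 10.1 CP10K on average, and Neat1 added 19.5 against 3.71. Apoa4, an apolipoprotein of the villus tip, stood at 21.5, 109 and 119, and 12.1, 79.8 and 146 CP10K in members and at 4.06 to 25.1 in high-Spink4 cells. Members were higher in 6 of 6 samples (2.79 ± 0.40, adjusted p = 0.000252), and both samples of mouse 1 were low in members. In cells of at least 2000 UMIs the difference was 2.40 (adjusted p = 0.00124), though members of at least 4000 UMIs held less Apoa4 than those under 2000. Creb3l3 stood at 1.57, 10.6 and 11, and 0.973, 14.1 and 35.6 against 0.0900 to 3.81 CP10K. Rbp2 enterocytes averaged 206 CP10K of Apoa4 and 12.7 of Creb3l3, beside 81.3 and 12.3 in members. The immediate early genes Fos (15.5 ± 12.2 against 5.47 ± 6.72 CP10K, adjusted p = 0.00789) and Jun (8.90 ± 3.85 against 3.09 ± 2.84, adjusted p = 0.00782) also rose, and they were the 2 of 19 immediate early genes tested that passed (median 0.74). The 3 that fell were Tmsb4x (10.2 against 27.5 CP10K), Tmsb10 (9.71 against 19.8) and S100a6 (8.04 against 16.5), which bind actin or calcium, and Tmsb10 and S100a6 did not pass in deeper cells (adjusted p = 0.142 and 0.633). None of 7 heat shock genes tested passed in limma (median 0.26).

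Enterocyte genes were mostly higher in members: 28 of 32 tested rose and none fell, with a median of 1.97. Apoa1 averaged 155 ± 112 against 23.9 ± 14.7 CP10K (2.52 ± 0.33, adjusted p = 9.1e-05), Prap1 29.6 ± 20.5 against 5.95 ± 2.33 (1.98 ± 0.37, adjusted p = 0.00245) and Fabp2, a fatty acid carrier, 55.6 ± 34.4 against 27.3 ± 16.6 (1.00 ± 0.23, adjusted p = 0.00739). When centred, 18 of the 32 passed and Fabp2 did not (adjusted p = 0.171), and in cells of at least 2000 UMIs 13 of 33 passed. Summed over the list, members held 214 to 892 CP10K, high-Spink4 cells 86.0 to 218 and Rbp2 enterocytes 788 to 2041. That was 21.7% to 43.7% of the level of the enterocytes of the same sample in members and 4.57% to 20.2% in high-Spink4 cells. The ratio of Apoa4 to Fabp1, a gene chosen after its values were seen, differed from that in enterocytes. Apoa4 was 0.704, 4.05 and 5.25, and 0.741, 4.87 and 18.8 times Fabp1 in members. In Rbp2 enterocytes of the same samples it was 0.279, 1.61 and 2.97, and 0.307, 3.03 and 5.20 times Fabp1, so the ratio was higher in members in 6 of 6. In high-Spink4 cells it was 0.575, 1.06 and 1.17, and 0.596, 2.73 and 2.54. That was above the enterocytes in both samples of mouse 1 and below them in the others. The longest transcripts have 1815 bases for Apoa4 and 553 for Fabp1, and the part of length in this ratio was not tested. The rule capped Rbp2, and members averaged 13.6 ± 6.54 CP10K of it against 4.38 ± 1.38 in high-Spink4 cells and 92.6 in enterocytes. The part of RNA from enterocytes, free in the suspension or attached, in the members' levels was not tested.

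**Figure D4:**
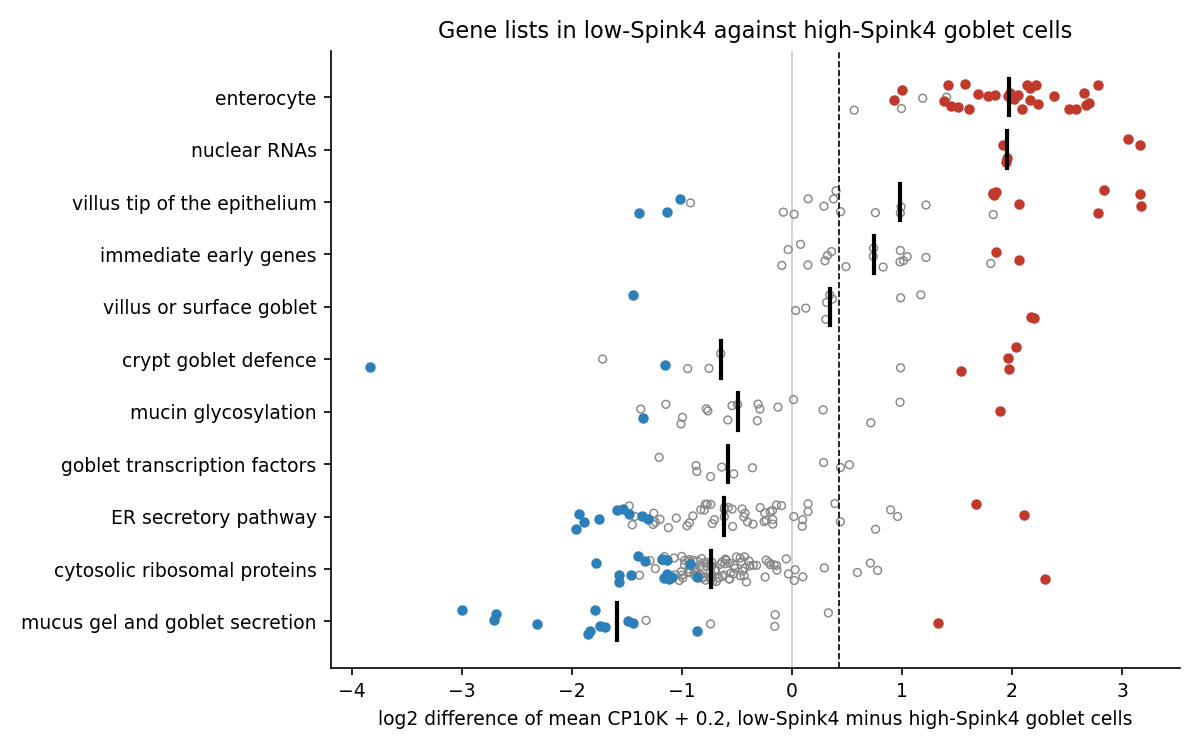
Each point is a tested gene, at its log2 difference of mean CP10K + 0.2 between low- and high-Spink4 goblet cells; red genes rose, blue genes fell and open points did not pass. Black bars are list medians, the dashed line is the median of all genes at 0.42, and the lists run from enterocyte genes at 1.97 to mucus and goblet secretion genes at -1.59.

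Antimicrobial and defence genes of crypt goblet cells divided. Of 11 tested, 4 rose and 2 fell (median -0.65). Pigr, the receptor that carries immunoglobulins across the epithelium, stood at 35.6, 86.6 and 67.0, and 22.5, 72.8 and 32.1 CP10K in members and at 6.33 to 22.9 in high-Spink4 cells (1.96 ± 0.32, adjusted p = 0.0011). The lectin Reg3b averaged 34.9 ± 19.1 against 10.2 ± 9.09 CP10K and Reg3g 21.3 ± 14.1 against 7.22 ± 5.21, and both were higher in members in 6 of 6 samples, Reg3g without passing in deeper cells (adjusted p = 0.0712). Enterocytes held more of both, with 153 CP10K of Reg3b and 67.5 of Reg3g on average. Spink1, a trypsin inhibitor, was the other gene that rose (3.15 against 0.486 CP10K, adjusted p = 0.0136), and it did not pass when centred (0.0570) or in deeper cells (0.163). Rbp2 enterocytes averaged 4.52 CP10K of Spink1, and 46.8 CP10K of Pigr beside 52.8 in members. The part of enterocyte RNA in the rise of these genes was not tested. Lypd8, which keeps flagellated bacteria off the epithelium, fell with Mptx1 (24.5 ± 11.5 against 53.5 ± 23.5 CP10K, -1.15 ± 0.22, adjusted p = 0.00289).

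Markers of other cells were counted the same way. Of 11 Paneth genes tested 1 fell (Defa24, 46.7 ± 24.6 against 91.8 ± 50.0 CP10K, adjusted p = 0.0484, 0.105 without mouse 1), and of 4 enteroendocrine genes 1 rose (Gip, 8.55 ± 11.8 against 2.27 ± 3.76, adjusted p = 0.0319), which did not pass when centred (adjusted p = 0.151). Reads of the near-identical defensin genes may be split among them. Gip was at 215 CP10K in the Rbp2 enterocytes of anterior mouse 1, where members held 29.8. Of 9 stem and progenitor genes 1 rose (Arglu1), which did not pass when centred (0.158), in deeper cells (0.484), in thinned cells (0.164) or without mouse 1 (0.0978), and none of 7 cell cycle and 2 tuft genes passed in limma. Of 4 class II antigen presentation genes, Cd74 (log2 difference 2.10 ± 0.47, adjusted p = 0.00739) and H2-Aa (1.58 ± 0.49, adjusted p = 0.0386) rose, the latter without passing when centred (0.181). Of 29 markers of lymphocytes, plasma cells and myeloid cells 1 was in both tables, and it was too low to be tested between the classes, so immune cells could not be examined by their markers here. Of 10 stromal markers 1 was shared, Pecam1, which rose and did not pass when centred.

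Between the regions, members were compared over 3 anterior and 3 posterior samples in limma. Of 4510 genes tested, 1 was higher in the anterior (0.0222%) and 0 lower (0%) at an adjusted p below 0.05, and 206 had an unadjusted p below 0.05. The samples of the regions did not overlap for 404 genes (8.96%). With the mouse as a block, since both regions came from the same 3 mice, 4 were higher and 6 lower. Reg1, a secreted lectin of the regenerating family, was the gene that passed. It stood at 3.39, 20.1 and 19.5 CP10K in anterior and 0.334, 0.343 and 0.830 in posterior members (log2 difference 4.08 ± 0.71, adjusted p = 4.6e-05, 3.18e-06 with the block). The same gene stood at 13.2, 103 and 74.3, and 0.705, 0.125 and 1.88 CP10K in Rbp2 enterocytes of these samples, so its level there moved with the region too, and the part of enterocyte RNA in the members' difference was not tested. Reg1 did not pass in cells of at least 2000 UMIs (3.36, adjusted p = 0.235), in cells thinned to 1000 UMIs (3.47, 0.0524), without anterior mouse 2 (3.65, 0.0827) or without anterior mouse 3 (3.67, 0.0723). No gene passed in limma in thinned cells (157 had an unadjusted p below 0.05) or without anterior mouse 2 (136).

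The other genes of smallest p did not pass without the block. Zg16 was higher in the anterior in every mouse (520, 871 and 703 against 440, 230 and 339 CP10K, log2 difference 1.07 ± 0.32, adjusted p = 0.365, 1.12e-05 with the block). Herc2, a ubiquitin ligase, stood at 2.01, 5.90 and 4.55 against 1.61, 0.0722 and 0.0145 CP10K (3.08 ± 0.83, adjusted p = 0.173, 0.0473 with the block). Gip stood at 29.8, 15.3 and 0.710 against 2.10, 3.34 and 0 CP10K, so its regions overlapped (adjusted p = 0.15, 0.0153 with the block). Reg4, a lectin of secretory cells, stood at 6.35, 2.01 and 5.27 against 0.901, 0.958 and 0.0937 CP10K and passed in neither fit (adjusted p = 0.439 and 0.109). In the other direction, Fabp2 stood at 32.0, 29.5 and 26.1 against 49.9, 88.1 and 108 CP10K (adjusted p = 0.439, 0.00376 with the block). Its level in Rbp2 enterocytes of these samples moved the same way, with 98.4, 126 and 92.7 against 241, 333 and 450 CP10K. The part of enterocyte RNA in the Fabp2 difference of members was not tested. Defa22, a Paneth defensin, stood at 1.27, 1.14 and 0.112 against 4.05, 12.8 and 2.48 CP10K (adjusted p = 0.253, 0.0491 with the block). The transcript 4930539E08Rik stood at 0.727, 0 and 0.776 against 1.20, 6.82 and 6.86 CP10K and passed in neither fit (adjusted p = 0.251 and 0.0601).

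Genes of class II antigen presentation had lower values in anterior than in posterior members. All 6 tested lay below 0, with a median of -2.13 beside 0.09 for all genes, and none passed without the block while 3 did with it. Cd74, the invariant chain, stood at 1.86, 3.59 and 0.647 CP10K in anterior and 2.51, 20.7 and 22.2 in posterior members (-2.53 ± 0.64, adjusted p = 0.15, 0.011 with the block). The regions overlapped, since the posterior level of mouse 1 lay below the anterior level of mouse 2, and mice 2 and 3 had the wide gaps. H2-Aa stood at 0.956, 0.619 and 0 against 2.30, 9.49 and 4.15 CP10K (adjusted p = 0.15, 0.0286 with the block) and H2-Ab1 at 1.55, 1.82 and 0.282 against 2.35, 14.7 and 8.84 (adjusted p = 0.219, 0.0327 with the block). In Rbp2 enterocytes Cd74 stood at 3.73, 4.68 and 1.36, and 12.3, 39.5 and 30.1 CP10K. Of 19 immediate early genes 17 lay below 0 (median -0.81) and none passed with or without the block. Whether the difference between low- and high-Spink4 cells changed with the region was tested as an interaction in limma: of 4505 genes 0 passed (220 had an unadjusted p below 0.05, smallest adjusted p = 0.934).

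**Figure D5:**
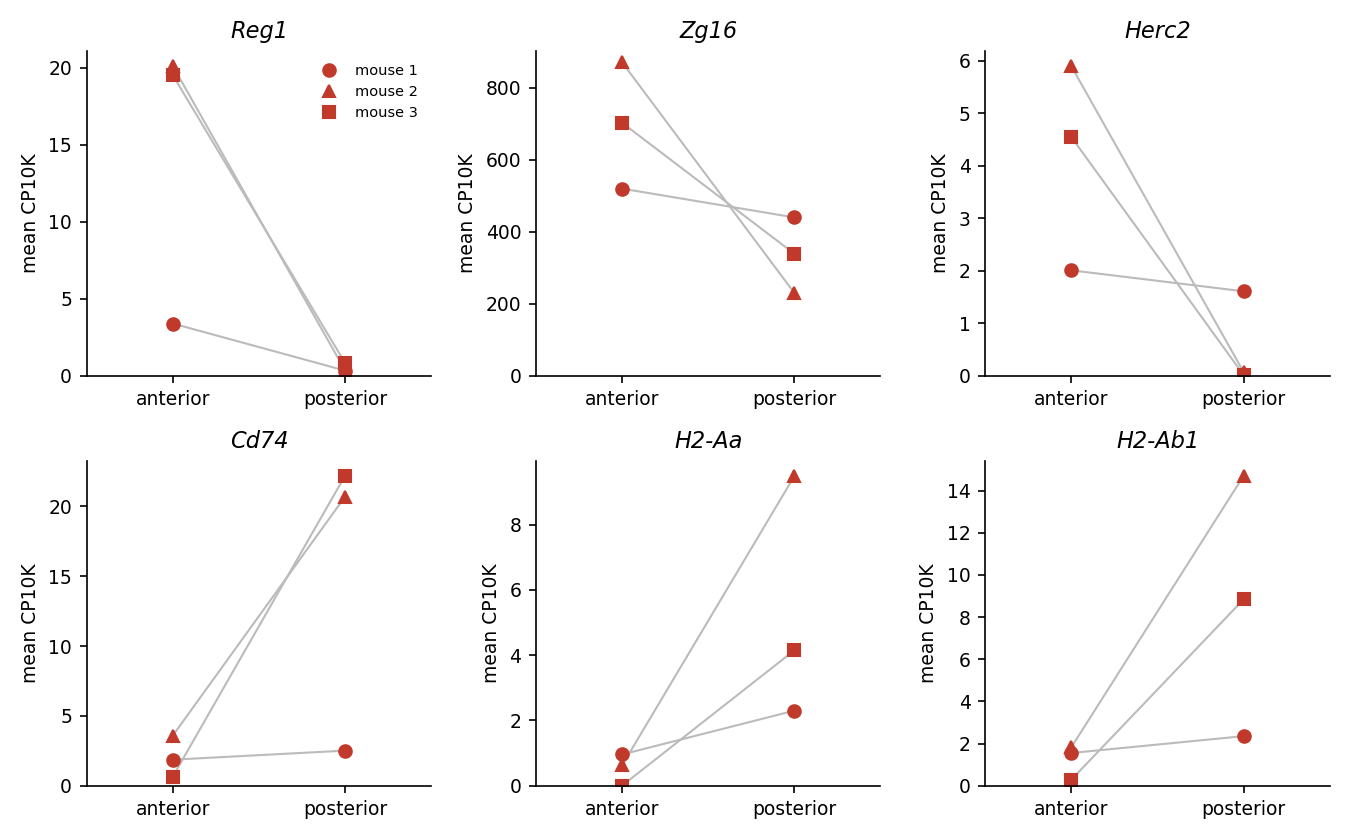
Mean CP10K in low-Spink4 goblet cells of 6 genes, with lines joining the anterior and posterior samples of mouse 1 (circles), mouse 2 (triangles) and mouse 3 (squares). Reg1 lies between 3.39 and 20.1 in anterior and at no more than 0.830 in posterior samples, and posterior Cd74 is 20.7 and 22.2 in mice 2 and 3 and 2.51 in mouse 1.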

How the data were processed

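Single-cell libraries of 6 samples were used. The authors deposited log2 values, 1 table of genes by cells for each region, made, per the submitters' processing notes, with STAR 2.6.1b on GRCm38/mm10, bcl2fastq, cutadapt 1.18, R 3.5.1 and UMI-tools 1.0.0. The authors' filters on cells and genes are not stated. The values are corrected log values and the correction was undone: whole UMIs came out for 100.0% of values at a tolerance of 0.01, as log2(UMIs/size factor + 1) plus an offset for each pool and 2 covariates. The number of columns not mapped to a sample was 0. The rule was applied to the deposited values, and levels came from the UMIs of the 5674 genes in both tables (98.0% of UMIs, 5671 with a symbol). The 192 cell barcodes are reused in each of the 18 pools, so cells were told apart by pool. Cells were sorted 1 to a well. Doublets were not called, and cells sorted while attached to each other were not tested for.

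Mean CP10K by class and sample, for classes of at least 5 cells, was tested as log2(mean + 0.2) with limma 3.58.1 (eBayes with trend, Benjamini-Hochberg adjustment) where a gene's mean reached 0.2 CP10K. Differences are on this log2 scale, which understates changes of low genes. Classes were compared within samples. Only the mice are separate animals, so p-values over 6 samples treat both regions of a mouse as independent, and the mean of both regions per mouse is an alternative. Deviations of same-mouse samples from the region means correlated at 0.31, 0.05 and 0.09 over genes, and the pairing comes from the labels. Shares, depth and nuclear RNA were tested with exact tests over samples. The scripts were tested on simulated data. Alternatives were the pseudocount (0.05 and 1), no filter, sums of UMIs, cells of at least 2000 UMIs, thinning to 1000 UMIs, Spink4 thresholds of 4 and 6 and leaving out each sample. Leaving out mouse 1, centring and totals without the 50 most abundant genes were added after seeing the data.

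Named genes were the 12 largest changes in each direction among calls with 1 sign in all samples, between regions the 5 of smallest p in each direction, the highest members of 23 lists and the genes of the rule. Of the 4 highest members of a list, those that did not pass are mostly given as counts. Muc3, Gcnt3, Cd9, Ces2e, Spink1, Cox7a1, Fabp1, Tmsb4x, Tmsb10, S100a6 and the gene of a count of 1 were named after their values were seen. The members and the lists were chosen with earlier results of these data known. Analyses used Python 3.11.15, scipy 1.17.1 and R 4.3.3.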

Additional observations from a re-analysis of the deposited data

How the results depend on the processing

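The 3 within-sample differences (UMIs, genes and nuclear RNA share) kept their direction in every alternative run except genes per cell in cells thinned to 1000 UMIs (46.8). They did not pass where fewer samples leave no p below 0.0625: with a Spink4 threshold of 6 (-2.55 in log2 UMIs, -740 genes, 2.36 points), with the mean of both regions per mouse (-2.59, -578 and 2.66) and without 1 sample (from -2.83 to -2.42, from -655 to -521 and from 2.53 to 2.86). The share of members among all cells moved from -7.82 to 8.93 points without 1 sample. Genes called between the classes numbered 556, and 22 with at least 10 cells of each class, 223 in cells of at least 2000 UMIs, 358 thinned, 136 at a threshold of 4, 300 with totals without the 50 most abundant genes (180 higher), 344 per mouse and 223 to 466 without 1 sample. Between regions 1 gene was called, and 2 others without it in cells of at least 2000 UMIs, 0 thinned, 7 without mouse 1, 2 with totals without the 50 most abundant genes and 0 to 8 without 1 sample.

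With the replicate block on the mouse, 10 genes passed between regions, 0 in the interaction, and the shares differed by -1.36 and 5.96 points (exact sign-flip over 3 mice, p = 1.00 and 0.50). Of 1330 alternative values of 70 named genes, 18 turned sign, in 6 genes that had not passed: Elf3 (-0.39 in cells of at least 2000 UMIs, -0.10 at a threshold of 4, -0.22 centred, -0.24 without the top 50), Klf4 (1.24, passing, at a threshold of 6, -0.02 without posterior mouse 3, to 0.67 without other samples, -0.07 centred), Krt8 (-0.20 thinned, -0.02 and -0.01 without posterior mouse 2 or 3, to 0.09, -0.48 centred, -0.39 without the top 50), Plac8 (-0.06 with 10 cells and at a threshold of 6, -0.14 centred, -0.21 without the top 50), Spdef (0.37 at a threshold of 6, -0.80 to 0.25 without 1 sample) and Xbp1 (0.15 in cells of at least 2000 UMIs). The cause was not tested. Depth limits what was detected in members, at a median of 1728 UMIs against 7767 in high-Spink4 cells.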
